A study of Homo sapiens with 6 samples.

Results

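The genes described are the caveolins CAV1 and CAV2, the cavins CAVIN1, CAVIN2 and CAVIN3, and EHD2, which were found by their GENCODE symbols among the Ensembl rows of a gene count table. All 6 were present among the 58884 genes of the table, and all 6 had enough counts to be tested. RNA-seq was performed in DLD1 cells, a colorectal cancer line, in 3 libraries of parental cells and 3 libraries of p85β KR-AA cells. In the latter, the K477A and R478A changes were placed in the endogenous PIK3R2 gene, which encodes p85β, a regulatory subunit of PI 3-kinase, so that a nuclear localization sequence was mutated. Both groups are labelled as the same line, which is described as carrying a wild-type and a helical domain mutant allele of PIK3CA, and no drug or other treatment is named in the labels. The mutant cells were made with CRISPR/Cas9 guides and a targeting vector, and the study describes a pair of independently derived clones, but the labels do not say which clone each library came from. The knock-in, the derivation of clones and any other difference between these cultures therefore cannot be told apart, and p-values measure only the spread between these libraries, which may be technical.

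Caveolae are small flask-shaped pits of the plasma membrane. Caveolins are hairpin membrane proteins that oligomerize into the caveolar bulb, and cavins are cytoplasmic coiled-coil proteins that assemble around it. CAV1 and CAVIN1 are both needed for caveolae outside striated muscle, CAVIN2 and CAVIN3 join the CAVIN1 coat, and EHD2 is an ATPase that sits at the caveolar neck and holds the pit at the surface. Caveolae are abundant in fat cells, endothelium, smooth muscle and fibroblasts and are sparse in many epithelial cells.

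In p85β KR-AA cells, CAV1 transcripts were 6.47-fold higher than in parental cells, and CAVIN2 went from 1 count in all parental libraries together to 4142 counts in the mutant libraries. CAVIN1 and EHD2, the most abundant of the 6 in parental cells per length of gene, were 2.93-fold and 2.41-fold lower. CAV2 was 1.65-fold higher and CAVIN3 did not pass the test. A gene was called when the fold change was at least 3 and the adjusted p was under 0.01 (edgeR quasi-likelihood test over 16059 genes, parental as reference), the thresholds of the study. CAV1 and CAVIN2 were up-regulated by this rule, 2 of 6 genes, where 28.6% of all tested genes were up-regulated. None was down-regulated, where 17.6% of all tested genes were. At an adjusted p under 0.01 and any fold, 3 of 6 were higher and 2 of 6 lower, beside 41.6% and 32.7% of all tested genes. At a fold of at least 2 and the same p, CAV1 and CAVIN2 were higher and CAVIN1 and EHD2 lower, beside 36.5% and 26.1% of all tested genes. The median log2 fold change of the 6 genes was 0.48 and that of all tested genes 0.32. In bulk RNA, a change in the number of cells that hold a transcript and a change in its amount per cell cannot be told apart.

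The following facts of the whole data set bear on these values. Library totals were between 20301396 and 26712816 counts, so that 3 counts, the smallest level treated as detectable, stood for 0.0818 to 0.218 CPM (counts scaled to the TMM-adjusted library size). That floor takes in counting error alone. Of the called genes, 61.9% were up (4597 up, 2825 down). When libraries were scaled by their totals alone, this share was 87.9% (7052 up, 973 down) and the median over genes moved upward by 0.92 on the log2 scale. Fold changes also followed gene length and GC content. Offsets that place each gene relative to genes of like length and GC content in the same library left 2344 genes up and 1634 down, 14.7% and 10.3% of 15902 genes. PIK3R2 itself had 169 to 524 counts in parental and 125 to 503 in mutant libraries (log2 fold change -0.93, standard error 0.42, adjusted p = 0.056, edgeR). RPS4Y1, a gene of the Y chromosome, had 0 counts in every parental library and 4656 to 6696 in every mutant library. This difference was not sought by the design, and what it says of the origin of the cultures was not tested.

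To show where the transcription of these genes begins, the 250 bases before the most upstream RefSeq start are printed below for the 4 members that had an entry (GRCh38.p14, 5′ to 3′ on the strand of the gene). CAV1 and CAV2 are shown because they are neighbours on chromosome 7 and had unequal fold changes, CAVIN2 because it was nearly silent in parental cells, and EHD2 because it was lower in the mutant. CAVIN1 and CAVIN3 are named only. Capitals mark the GC box (GGGCGG or its reverse CCGCCC), bound by SP1-type factors, and the TEAD motif (GGAATG or CATTCC), on either strand.
CAV1, chr7:116524759-116525008, plus strand: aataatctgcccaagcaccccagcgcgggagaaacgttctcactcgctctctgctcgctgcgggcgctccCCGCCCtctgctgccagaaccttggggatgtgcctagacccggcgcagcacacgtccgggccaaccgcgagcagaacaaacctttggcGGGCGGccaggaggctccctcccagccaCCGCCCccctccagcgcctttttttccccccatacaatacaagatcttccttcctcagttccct
CAV2, chr7:116499488-116499737, plus strand: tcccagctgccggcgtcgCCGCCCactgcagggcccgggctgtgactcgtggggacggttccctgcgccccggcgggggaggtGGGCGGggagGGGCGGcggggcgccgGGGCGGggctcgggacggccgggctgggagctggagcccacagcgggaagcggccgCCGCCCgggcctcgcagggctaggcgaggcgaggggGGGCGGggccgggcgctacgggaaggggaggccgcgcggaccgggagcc
CAVIN2, chr2:191847089-191847338, minus strand: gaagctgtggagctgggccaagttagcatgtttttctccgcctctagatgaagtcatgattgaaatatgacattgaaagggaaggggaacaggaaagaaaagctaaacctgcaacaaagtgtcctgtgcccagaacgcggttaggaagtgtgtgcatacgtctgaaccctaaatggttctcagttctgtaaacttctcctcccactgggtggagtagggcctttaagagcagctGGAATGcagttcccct
EHD2, chr19:47713172-47713421, plus strand: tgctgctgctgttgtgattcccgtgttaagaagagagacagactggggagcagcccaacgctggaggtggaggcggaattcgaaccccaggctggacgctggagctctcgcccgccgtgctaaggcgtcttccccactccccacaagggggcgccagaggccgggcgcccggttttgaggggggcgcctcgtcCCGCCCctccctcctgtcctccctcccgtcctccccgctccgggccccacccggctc
The windows of CAV1, CAV2 and EHD2 held 3, 6 and 1 GC boxes and that of CAVIN2 held 0, where 42.6% of 35116 RefSeq promoter windows of this length held at least 1. GC content was 63.6% for CAV1, 83.2% for CAV2 and 69.6% for EHD2, above the median of 58% over all windows, and 48% for CAVIN2. CpG pairs numbered 18, 35, 20 and 4 for CAV1, CAV2, EHD2 and CAVIN2. CAVIN2 alone of the 4 held a TEAD motif, 16 bases before its start, where 11.9% of all windows held one. The AP-1 motif (TGANTCA, the same on both strands) and TATAAA (or TTTATA) were searched too and were in none of the 4 windows, where 6.57% and 10.7% of all windows held them. The motif matches are descriptions of letters, and no binding was measured.

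CAV1 (ENSG00000105974, plus strand of chromosome 7, 116165048 to 116201233 of GRCh37 in GENCODE release 44) had 274, 287 and 385 counts in parental replicates 1, 2 and 3 and 5178, 4020 and 3442 in mutant replicates 1, 2 and 3. On the CPM scale these were 18.2, 20.9 and 23.8 in parental and 141, 140.0 and 125 in mutant libraries. Every mutant library lay far above the highest parental one, and the spread within a condition was small beside the gap. Mean levels were 21.0 ± 2.78 CPM in parental and 136 ± 8.79 CPM in mutant cells (SD, n = 3 each). On the log2 scale CAV1 rose by 2.69 (standard error 0.15, adjusted p = 7.88e-09, edgeR). CAV1 was up-regulated with each library left out in turn (2.59 to 2.76) and with library totals (3.61). With the length and GC offsets it was also called, but at 1.66 (standard error 0.20) it was only just past the log2 threshold of 1.58.

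CAV2 (ENSG00000105971, plus strand of chromosome 7, 115927434 to 116148595), the partner that forms hetero-oligomers with CAV1, had 249, 364 and 379 counts in parental libraries and 1361, 1213 and 824 in mutant libraries. Its CPM were 16.5, 26.5 and 23.4 in parental and 37.1, 42.2 and 30.0 in mutant libraries. The mutant libraries were all above the parental ones, but parental replicate 2 and mutant replicate 3 were close to each other. The log2 fold change was 0.72 (standard error 0.20, adjusted p = 0.0044, edgeR), past the p threshold and short of the fold threshold. The adjusted p was over 0.01 without parental replicate 1 (0.019), parental replicate 3 (0.018), mutant replicate 1 (0.012) or mutant replicate 2 (0.026). The direction of CAV2 depended on the scaling. With library totals it was up-regulated, at 1.65 on the log2 scale, and with the length and GC offsets its value was -0.73 (standard error 0.21). CAV2 has the lowest GC content of the 6 genes, 36.3% in its longest transcript, where the median of tested genes is 48.9%.

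CAVIN1 (ENSG00000177469, minus strand of chromosome 17, 40554467 to 40575274), also known as PTRF, the core of the cavin coat, was the most abundant of the 6 in every library. It had 749, 628 and 608 CPM in parental replicates 1, 2 and 3 and 219.5, 208 and 250.1 CPM in mutant replicates 1, 2 and 3. The lowest parental library was far above the highest mutant one. Mean levels were 662 ± 76.4 CPM in parental and 226 ± 21.7 CPM in mutant cells (SD, n = 3 each). The difference, -1.55 on the log2 scale (standard error 0.14, adjusted p = 3.07e-07, edgeR), was just inside the log2 threshold of 1.58. It passed that threshold without parental replicate 2 (-1.62), parental replicate 3 (-1.65) or mutant replicate 3 (-1.62) and with DESeq2 (-1.62). It was lower in mutant cells under each scaling, at -0.63 with library totals and -0.86 with the length and GC offsets.

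CAVIN2 (ENSG00000168497, minus strand of chromosome 2, 192699036 to 192711814), also known as SDPR, a cavin that can bend membranes, had 0, 1 and 0 counts in parental replicates 1, 2 and 3. In mutant replicates 1, 2 and 3 it had 1841, 1463 and 838 counts, or 50.2, 50.9 and 30.5 CPM. It was the gene with the clearest separation, near-absent in one condition and of middle abundance in the other, and mutant replicate 3 was the lowest of the mutant libraries. From the pooled counts of each condition the ratio was 2008, with an exact 95% counting interval from 360.2 to 79323 that does not include the spread between libraries. The gene was up-regulated (adjusted p = 3.55e-09, edgeR), and its fitted log2 fold change of 10.63 depends on the treatment of the single parental count. Without parental replicate 2, the library that held this count, the fitted value was 13.09. The antisense gene CAVIN2-AS1, which overlaps CAVIN2, had at most 5 counts in a library.

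CAVIN3 (ENSG00000170955, minus strand of chromosome 11, 6340176 to 6341762), also known as PRKCDBP or SRBC, a cavin that binds CAV1 and protein kinase C delta, was measured at low levels. Its CPM were 5.91, 8.96 and 8.70 in parental replicates 1, 2 and 3 and 9.73, 9.06 and 9.04 in mutant replicates 1, 2 and 3. The mutant libraries lay above the parental ones by a narrow margin. The difference, 0.24 on the log2 scale (standard error 0.20, adjusted p = 0.29, edgeR), was within the spread between replicates. With library totals it was 1.17 (adjusted p = 4.11e-04), past the p threshold and short of the fold threshold. CAVIN3 is the shortest of the 6 genes, 957 bases in the deposited table, and the richest in GC, 66.7%. Relative to genes of like length and GC content it was up-regulated, at 2.66 on the log2 scale (standard error 0.26), the largest shift that the offsets made to any of the 6.

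EHD2 (ENSG00000024422, plus strand of chromosome 19, 48216679 to 48246391) had 102, 72.1 and 74.1 CPM in parental replicates 1, 2 and 3. It had 31.7, 33.1 and 38.2 CPM in mutant replicates 1, 2 and 3. The groups did not overlap, and parental replicate 1 was the highest library. The log2 fold change was -1.27 (standard error 0.16, adjusted p = 1.03e-05, edgeR), past the p threshold and short of the fold threshold. With library totals it was -0.34, which did not pass the test (adjusted p = 0.082), and with the length and GC offsets it was -0.38 (standard error 0.19), which did not pass it either (adjusted p = 0.076). In all, 4 of the 6 genes had every mutant library above every parental one and 2 had every mutant library below, beside 47.0% and 36.5% of all tested genes.

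**Figure D1:**
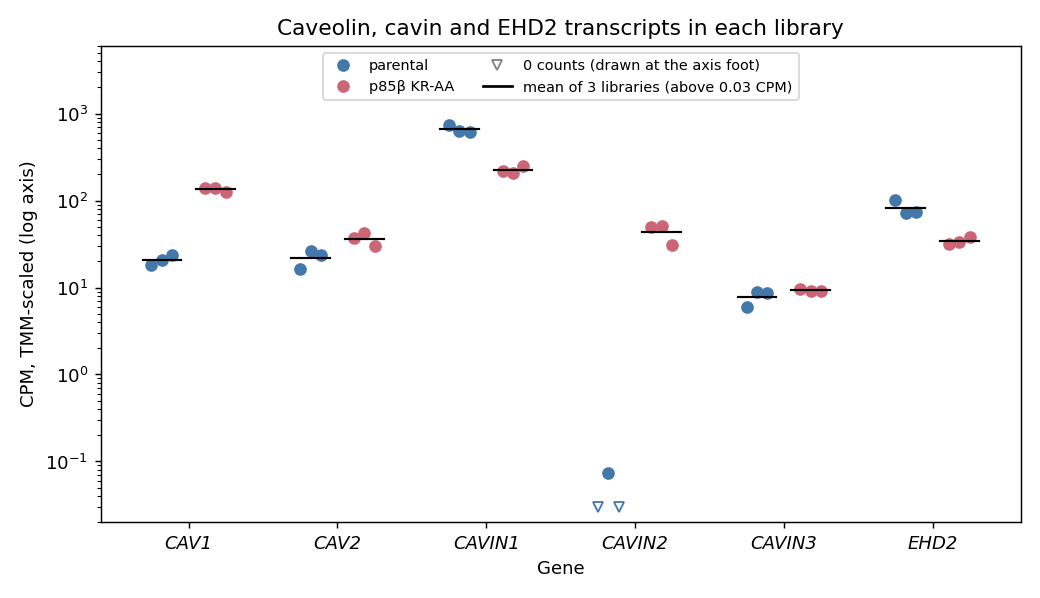
Level of each gene (CPM scaled by TMM, log axis) in each of 3 parental (blue) and 3 p85β KR-AA (red) libraries, with black bars for the means and open triangles for libraries with 0 counts. CAV1 and CAVIN2 are higher and CAVIN1 and EHD2 lower in all mutant libraries, and the CAV2 and CAVIN3 groups lie close together.

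**Figure D2:**
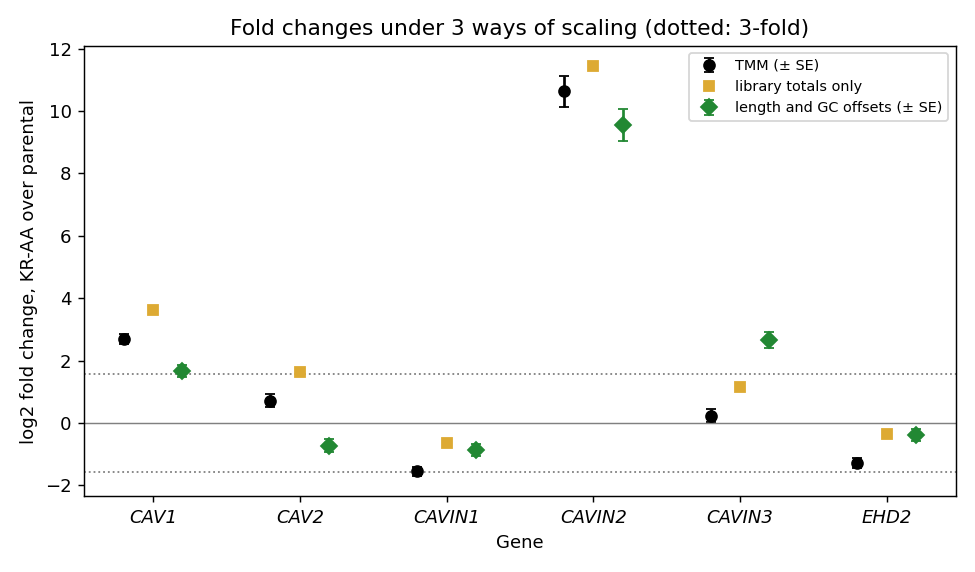
Log2 fold change of each gene, mutant over parental, with TMM scaling (black circles, ± SE), library totals only (yellow squares) and length and GC offsets (green diamonds, ± SE), with dotted lines at a 3-fold change. CAV1 and CAVIN2 stay above the upper line and CAVIN1 below 0 throughout, CAV2 crosses 0, and CAVIN3 passes the upper line only with the offsets.

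Levels of different genes were compared per kilobase of gene, as CPM per kb, without the length and GC offsets. In parental cells the order was CAVIN1 (185 ± 21.4), EHD2 (23.6 ± 4.75), CAV1 (8.53 ± 1.13), CAVIN3 (8.21 ± 1.76), CAV2 (7.5 ± 1.73) and CAVIN2 (0.00795 ± 0.0138; SD, n = 3 each). The range of CAV1 overlapped with that of CAVIN3 and the range of CAVIN3 with that of CAV2, and no other neighbours in this order overlapped. In mutant cells the order was CAVIN1 (63.3 ± 6.08), CAV1 (55.2 ± 3.58), CAVIN2 (14.4 ± 3.79), CAV2 (12.3 ± 2.08), EHD2 (9.80 ± 0.975) and CAVIN3 (9.69 ± 0.408). There CAVIN1 and CAV1 stood close without overlap, at a lowest CAVIN1 level of 58.3 and a highest CAV1 level of 57.5, and the 4 genes from CAVIN2 downward each overlapped with the next.

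On the scale of CPM per kb, the makeup of the family differed between the conditions. Division by length does not remove the link of fold changes to length and GC content, and the shares were not computed with the offsets. With the offsets the log2 fold changes were 1.66 for CAV1, -0.73 for CAV2, -0.86 for CAVIN1, 9.55 for CAVIN2, 2.66 for CAVIN3 and -0.38 for EHD2. CAVIN1 made up 81.3%, 78.8% and 78.1% of the summed level per kb of the 6 genes in parental replicates 1, 2 and 3, and 36.8%, 35.3% and 43.3% in mutant replicates 1, 2 and 3. CAV1 made up 2.87%, 3.81% and 4.44% in parental libraries and 34.4%, 34.5% and 31.6% in mutant libraries. CAVIN2 contributed at most 0.0107% in a parental library and 6.19% to 10.1% in mutant libraries. The summed level itself was 218 to 258 CPM per kb in parental and 162 to 167 in mutant libraries.

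**Figure D3:**
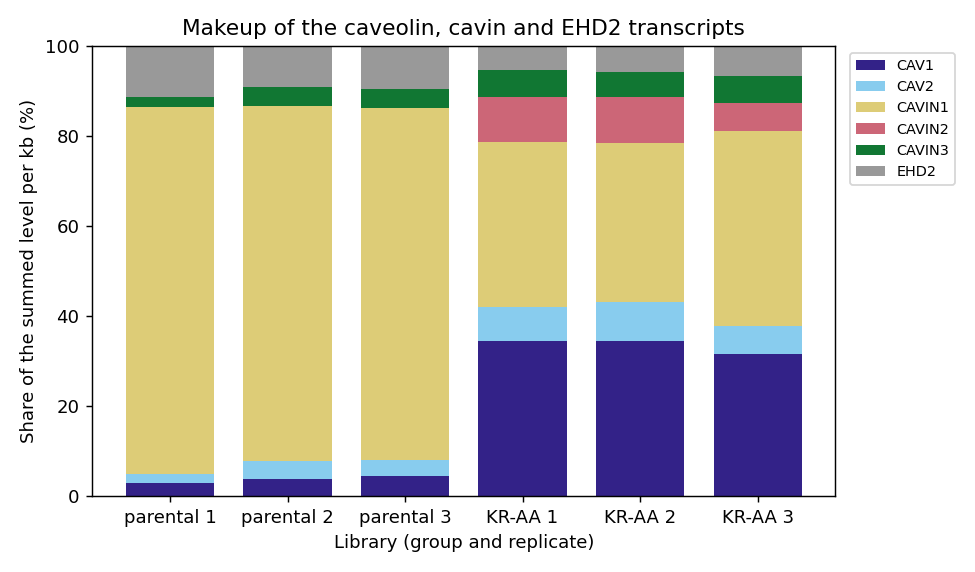
Share of each gene (%) in the summed CPM per kb of the 6 genes, without the length and GC offsets, 1 stacked bar per library. CAVIN1 fills 78.1% to 81.3% of the parental bars, and in the mutant bars CAVIN1 and CAV1 are of like size with CAVIN2 added.

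Ratios between genes within a library do not depend on how libraries are scaled. The level of CAVIN1 per kb was 17.6 to 28.3 times that of CAV1 in parental libraries and 1.02 to 1.37 times in mutant libraries, a ratio 19.0-fold lower in the mutant (log2 difference -4.25, standard error 0.24). The CAVIN1 to CAV1 ratio thus came near to 1 in all mutant libraries. For EHD2 to CAV1 the ratio was 2.19 to 3.92 in parental and 0.157 to 0.213 in mutant libraries, 15.5-fold lower (log2 difference -3.95, standard error 0.29). The caveolin pair differed too, from 0.756 to 1.05 CAV2 per CAV1 in parental libraries to 0.199 to 0.251 in mutant libraries, 3.91-fold lower (log2 difference -1.97, standard error 0.17). CAVIN3 to CAVIN1 went the other way, from 0.0294 to 0.0534 in parental to 0.135 to 0.165 in mutant libraries, 3.51-fold higher (log2 difference 1.81, standard error 0.30). No ratio overlapped between the conditions, but how often ratios of other gene pairs overlap was not computed. Of single tested genes, 47.0% had every mutant library above every parental one and 36.5% had every one below. Each of the 4 gave p = 0.1 in a two-sided exact permutation test (0.1 after Benjamini-Hochberg adjustment), the smallest p that 3 against 3 libraries allow. With the length and GC offsets the log2 differences were -2.52 for CAVIN1 to CAV1, -2.04 for EHD2 to CAV1, -2.39 for CAV2 to CAV1 and 3.52 for CAVIN3 to CAVIN1, in the same directions.

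On chromosome 7, CAV2 and CAV1 lie head to tail between TES, which encodes a focal adhesion protein, and MET, the receptor of hepatocyte growth factor. MET, 111 kb beyond CAV1, had 11.6, 11.5 and 12.8 CPM in parental and 115, 125 and 97.7 CPM in mutant libraries and was up-regulated (log2 fold change 3.23, standard error 0.15, adjusted p = 4.45e-09, edgeR). TES, 28.6 kb before the annotated body of CAV2, had 25.6, 35.0 and 36.7 CPM in parental and 52.6, 50.5 and 45.0 CPM in mutant libraries. Its log2 fold change (0.61, standard error 0.16, adjusted p = 0.0039) was close to that of CAV2. The annotated body of CAV2 begins far before the RefSeq start whose window is printed above, so TES lies much further from that start. With the offsets MET was at 0.97, TES at -0.63 and CAV2 at -0.73, and of these neighbours CAV1 alone stayed past the fold threshold upward. CAPZA2, which lies beyond MET, went from -0.03 with TMM scaling to -2.20 with the offsets, past the fold threshold downward. With TMM scaling, of the 5 tested protein-coding genes within 500 kb of CAV1, MET alone was up-regulated and none down-regulated. The shares of all tested genes were 28.6% and 17.6%.

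**Figure D4:**
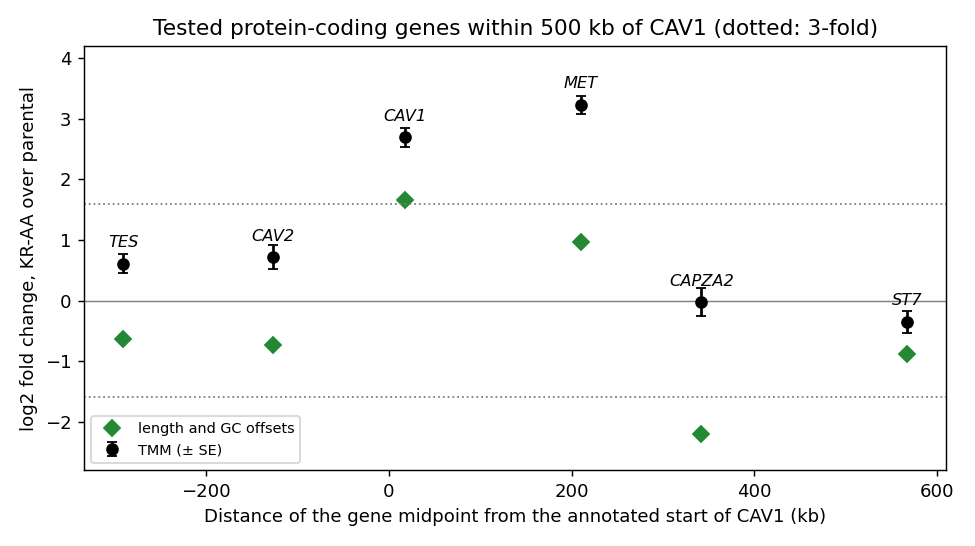
Log2 fold change (mutant over parental) of tested protein-coding genes with any part within 500 kb of CAV1, against the distance of the gene's midpoint from the annotated CAV1 start in kb, with TMM scaling (black, ± SE) and with length and GC offsets (green). With TMM scaling CAV1 and MET stand above the 3-fold line, TES and CAV2 at 0.61 and 0.72, and CAPZA2 and ST7 at -0.03 and -0.35. With the offsets CAV1 alone stands above the upper line (1.66) and CAPZA2 lies below the lower one (-2.20). The CAV2 midpoint is that of its annotated body, which begins far before the RefSeq start whose window is printed above.

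Neighbours of the other members were examined in the same way. The tested gene nearest to CAVIN2, NABP1, 93.2 kb away, did not pass the test (log2 fold change 0.62, standard error 0.20, adjusted p = 0.013), and none of its 2 tested neighbours was called. CAVIN1 lies between STAT3, the transcription factor, at 13.9 kb (1.38, standard error 0.15, adjusted p = 2.34e-06) and ATP6V0A1, a proton pump subunit, at 35.6 kb (0.48, standard error 0.17, adjusted p = 0.020), both on the other side of 0 from CAVIN1. CAVIN3 lies between FHIP1B (-0.85, standard error 0.15, adjusted p = 1.69e-04) and SMPD1, the acid sphingomyelinase (-0.84, standard error 0.16, adjusted p = 3.99e-04). EHD2 lies between BICRA (-0.61, standard error 0.17, adjusted p = 0.0061) and the ribosome biogenesis gene NOP53, which was down-regulated (-2.34, standard error 0.14, adjusted p = 1.73e-08). Within 500 kb of EHD2, 9 of 13 tested genes were down-regulated and the median was -2.24, beside 17.6% and 0.32 over all tested genes. The counts around CAVIN1 were 3 up and 7 down of 35, and around CAVIN3 1 up and 4 down of 14, beside the same 28.6% and 17.6%. The counts within 500 kb and the median around EHD2 were not redone with the length and GC offsets. With the length and GC offsets the nearest genes were closer to 0, at -0.39 for NABP1, 0.54 for STAT3, 0.093 for ATP6V0A1, -0.053 for FHIP1B, 0.35 for SMPD1, 0.023 for BICRA and -0.59 for NOP53, which was then short of the fold threshold. All these p-values are from edgeR's quasi-likelihood test.

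Other genes of caveolae and of related membrane domains were taken from a list of 22, of which 18 could be tested. By the study's thresholds 4 were up-regulated and 5 down-regulated, beside 28.6% and 17.6% of all tested genes. At any fold, 4 of the 18 did not pass the p threshold, where 4133 of all 16059 tested genes did not. The median log2 fold change was -0.67, against 0.32 over all tested genes. The muscle form CAV3 had 0 counts in all libraries. CAVIN4, the muscle cavin, had 0, 1 and 0 counts in parental and 7, 3 and 0 in mutant libraries, too few to be tested. PLVAP, which forms the diaphragm of endothelial caveolae, had 0 counts in all libraries, and the fatty acid receptor CD36 had at most 1 and 12.

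Among the up-regulated genes, EHD3, a relative of EHD2 that acts in endosomal recycling, had 1, 2 and 0 counts in parental and 256, 166 and 213 in mutant libraries. The pooled ratio was 103 (exact 95% counting interval 35.0 to 499), and EHD3 stayed up-regulated with the offsets. INSR, the insulin receptor, went from 6.18, 2.18 and 5.80 CPM in parental to 18.2, 19.5 and 18.8 CPM in mutant libraries (log2 fold change 1.99, standard error 0.29, adjusted p = 3.32e-05, edgeR; 0.44 with the offsets). ABL1, a kinase that phosphorylates CAV1 under stress, went from 75.7, 48.7 and 67.8 to 230.4, 219 and 257 CPM (1.88, standard error 0.17, adjusted p = 3.26e-07), and was also up-regulated with the offsets (2.34). ROR1, a receptor-like kinase described as a scaffold between CAV1 and CAVIN1, went from 1.53, 1.31 and 0.802 to 4.72, 5.26 and 3.17 CPM (1.86, standard error 0.31, adjusted p = 1.18e-04). ROR1 fell just short of the fold threshold without parental replicate 3 (1.58), and with the offsets its value was -0.14. The other CAV1 kinases, SRC (-0.28, adjusted p = 0.095) and FYN (-0.15, adjusted p = 0.48), did not pass the test.

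The down-regulated genes were PACSIN3, NOS3, FLOT2, FLOT1 and DNM2. PACSIN3, an F-BAR protein of muscle caveolae, went from 137, 148 and 109 CPM in parental to 19.7, 19.5 and 22.5 CPM in mutant libraries (log2 fold change -2.68, standard error 0.15, adjusted p = 1.05e-08, edgeR). NOS3, the endothelial nitric oxide synthase that CAV1 inhibits, went from 27.9, 27.6 and 23.5 to 4.98, 3.75 and 5.30 CPM (-2.49, standard error 0.19, adjusted p = 9.07e-08). The flotillins, scaffold proteins of related membrane domains, were lower together, FLOT2 at -2.25 (standard error 0.14, adjusted p = 1.89e-08) and FLOT1 at -2.14 (standard error 0.14, adjusted p = 1.95e-08). DNM2, a dynamin, was at -1.96 (standard error 0.14, adjusted p = 4.04e-08, edgeR). With the offsets NOS3 stayed down-regulated (-1.81) and EHD4, an EHD2 relative, was also called (-1.84). PACSIN3, FLOT2, FLOT1 and DNM2 were then at -1.05, -1.37, -0.99 and -1.13, short of the fold threshold. Under library totals alone, 1 gene of the list was down-regulated.

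The clathrin coat, the other major coat of endocytic pits, was described for comparison by 8 genes. The heavy chain CLTC was up-regulated (log2 fold change 3.50, standard error 0.19, adjusted p = 7.88e-09, edgeR), as was AP2B1 (1.70, standard error 0.20, adjusted p = 3.89e-06), which was at 1.48 and short of the fold threshold without parental replicate 2. The light chains CLTB (-3.18, standard error 0.17) and CLTA (-1.65, standard error 0.12) and the small AP-2 subunit AP2S1 (-2.85, standard error 0.14) were down-regulated (adjusted p = 8.05e-09, 5.70e-08 and 5.36e-09). AP2M1 (-1.55) and AP2A1 (-1.06) passed the p threshold only, and AP2A2 (-0.22, adjusted p = 0.20) did not. The list thus held 2 up and 3 down of 8, with a median of -1.31, beside 28.6% and 17.6% of all tested genes and a median of 0.32. None of the 8 was called with the length and GC offsets, where 14.7% of all genes were up and 10.3% down, CLTC was at 0.82 and CLTB at -1.14.

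**Figure D5:**
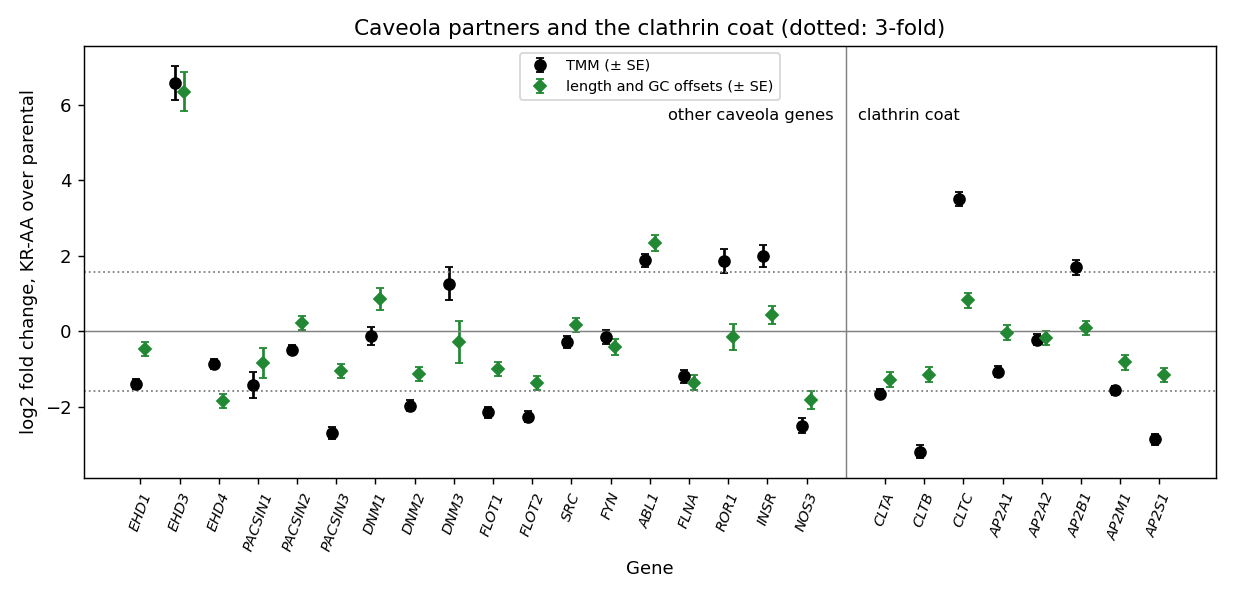
Log2 fold change (mutant over parental, ± SE) of the 18 tested other caveola genes and 8 clathrin coat genes with TMM scaling (black) and with length and GC offsets (green), with dotted lines at a 3-fold change. EHD3 and ABL1 stay above the upper line in both, NOS3 below the lower one in both, and EHD4 lies below it only with the offsets. The clathrin genes all lie within the lines with the offsets.

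Levels most like those of the members other than CAVIN2 over the 6 libraries were sought by the root mean square difference of log2(CPM per kb + 0.1) among 13755 other tested protein-coding genes. For CAV1 these were LTA4H (0.15) and DDX3X (0.23), for CAV2 CUL1 (0.079) and CHMP2B (0.087), for CAVIN1 QARS1 (0.047) and PDLIM1 (0.068), for CAVIN3 SAAL1 (0.057) and VPS26C (0.10), and for EHD2 OSBPL5 (0.088) and CMTR1 (0.095). No other member was among them, and the measure reflects both level and difference between the conditions.

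Markers of other caveola-rich cell types were set beside the members. The fibroblast list held 12 markers, and the test covered 7. VIM, LUM, COL3A1 and DCN rose past the thresholds, 4 of the 7, and none was down-regulated. The shares of all tested genes were 28.6% up and 17.6% down. The 12 summed to 31.0 to 45.5 CPM in parental and 1729 to 1865 CPM in mutant libraries. FBLN1 made up most of the parental sum, with means of 33.1 CPM in parental and 11.4 CPM in mutant cells (-1.54 on the log2 scale, adjusted p = 4.23e-06, edgeR, short of the fold threshold), and VIM most of the mutant sum, with a mean of 1772 CPM. COL1A2 and PDGFRA had 0 counts in every mutant library, and 5 of the 12 had at most 3 counts in each mutant library. The endothelial list, of which 7 of 8 genes were found and 4 tested, summed to 12.1 to 15 CPM in parental and 4.45 to 5.29 in mutant libraries. KDR was up-regulated, VWF and ESAM were down-regulated and EMCN was at 0. The 8 smooth muscle markers, of which 6 were tested, summed to 121 to 145 and 46.3 to 50.8 CPM, with MYH11 up-regulated and TAGLN and DES down-regulated. The calls in both lists stand beside the same 28.6% and 17.6% of all tested genes. The 6 adipocyte markers summed to 15.5 to 24.3 and 18.1 to 20.4 CPM, nearly all PPARG, with ADIPOQ at 0. Of 12 colon epithelial markers, 10 were over 1 CPM in every parental and 9 in every mutant library, and KRT8 was the most abundant in both. The 12 summed to 57223.9 to 79259.8 CPM in parental and 8802.6 to 10309.5 CPM in mutant libraries. Of the 11 tested, 2 were up-regulated (CDH1 and CEACAM5) and 6 down-regulated (KRT8, KRT18, KRT19, CDX2, VIL1 and LGALS4), beside 28.6% and 17.6% of all tested genes. The part of other cell types in the levels of CAV1 and CAVIN2 was not tested.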

How the data were processed

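RNA was extracted with TRIzol and libraries were made with an Illumina TruSeq RNA kit, 3 from parental and 3 from p85β KR-AA cells. The deposited values are estimated counts of reads for each Ensembl gene, not normalized by the authors, beside a gene length. The study describes trimming with SeqPrep and Sickle, and the submitters' processing notes name HISAT2 2.1.0, RSEM 1.3.1, DESeq2 1.24.0 and hg18. How strand was treated is not given in the sources used here. Groups follow the sample titles. The source names of mutant replicates 2 and 3 number the second changed residue differently, and titles and genotype were followed.

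Counts were rounded (the design had assumed whole counts) and scaled by TMM. Genes were kept by filterByExpr (minimum count 10, minimum total 15), and the quasi-likelihood F test of edgeR 4.0.16 (R 4.3.3) was run without covariates, with Benjamini-Hochberg adjustment. Standard errors were derived from the fold change and F. Symbols and GRCh37 positions came from GENCODE 44 (56745 of 58884 genes matched). The build behind the counts may differ. Alternatives were DESeq2 1.42.0, library totals, other filters, a block for replicate number, omission of each library, other thresholds, and offsets from a robust spline (MASS, 5 degrees of freedom each) of log2 CPM on length and GC content per library. The code was checked on simulated counts. Ratios were tested with SciPy 1.17.1, and figures drawn with matplotlib 3.10.9.

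Named were all members, the 4 largest changes each way among other caveola genes, all clathrin genes, the nearest tested neighbours, the genes most alike in level (those for CAVIN2 are not reported here), and markers. DNM2, EHD4, SRC and FYN were named after their values were seen. Members and lists were chosen with earlier results of these data known. Replicates of a condition differed by 4.08 to 35.8 times sampling noise (chi-square per degree of freedom) and were not copies.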

Additional observations from a re-analysis of the deposited data

How the results depend on the processing

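CAV1 and CAVIN2 were called up-regulated under each alternative that could test them. With at least 10 counts in every library CAVIN2 could not be tested, which left 1 member up-regulated. With library totals CAV2 was called up-regulated (1.65). With the length and GC offsets CAV2 reversed to -0.73, CAVIN3 was called up-regulated (2.66), the other caveola genes gave 2 up and 2 down, and the clathrin genes 0 up and 0 down. These values were the same with robust moderation of the variance, chosen after seeing that the edgeR fits with offsets, with the block and without a filter had infinite prior degrees of freedom (8.32 in the reported fit). With DESeq2 CAVIN1 was called down-regulated (-1.62), as the only member. Library totals left 5 other caveola genes up-regulated and 1 down-regulated, beside 7052 and 973 of all 16059 tested genes. At a fold of 2 and an adjusted p under 0.01, up-regulated genes numbered 2 of the members, 4 of the other caveola genes and 2 of the clathrin genes. Down-regulated genes numbered 2, 8 and 5, beside 36.5% up and 26.1% down of all tested genes. At an adjusted p under 0.05 with any fold, 3, 5 and 2 were up and 2, 10 and 5 down. The shares over all tested genes were not computed at that threshold. At an adjusted p under 0.01 with any fold they were already 41.6% up and 32.7% down.

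With each library left out in turn, log2 fold changes ranged from 0.54 to 0.85 for CAV2, from -1.65 to -1.46 for CAVIN1, from 0.062 to 0.32 for CAVIN3, from -1.39 to -1.10 for EHD2 and from 10.07 to 13.09 for CAVIN2. Down-regulated members numbered 0 to 1, up-regulated clathrin genes 1 to 2 and down-regulated ones 3 to 4. No difference in a ratio reversed or moved by more than the spread between replicates with 0.5 counts added or with a library left out. Raw counts give the same differences by construction, since gene length cancels. With the length and GC offsets no difference reversed, but all 4 moved by more than that spread. CAVIN1 to CAV1 went from -4.25 to -2.52 and EHD2 to CAV1 from -3.95 to -2.04. CAV2 to CAV1 went from -1.97 to -2.39 and CAVIN3 to CAVIN1 from 1.81 to 3.52.

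Among the listed genes, direction reversed with library totals for EHD4 (0.070), PACSIN2 (0.44), DNM1 (0.81), SRC (0.64), FYN (0.77) and AP2A2 (0.70). It reversed with the offsets for PACSIN2 (0.22), DNM1 (0.85), DNM3 (-0.28), SRC (0.17) and ROR1 (-0.14), with at least 10 counts in every library for DNM1 (0.09) and FYN (0.051), and without parental replicate 1 for DNM1 (leave-one-out range -0.30 to 0.11). In the fit that blocks on replicate number, values on the log2 scale were 2.70 for CAV1, 0.73 for CAV2, -1.55 for CAVIN1, 10.62 for CAVIN2, 0.26 for CAVIN3 and -1.25 for EHD2, and no call of a member changed. The numbers do not pair the libraries, with correlations of deviations of -0.136, 0.119 and -0.0447 for replicates 1, 2 and 3. Low counts limit CAVIN2 and EHD3 in parental cells.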
